A study of Mus musculus with 8 samples.

Results

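Genes by which the liver takes up fatty acids and lipoproteins were followed across 4 diet groups in 10 genes: the fatty acid translocase Cd36, the lipases Lpl and Lipc, the fatty acid transport proteins Slc27a2 and Slc27a4, the fatty acid binding proteins Fabp1, Fabp2 and Fabp4, and the lipoprotein receptors Vldlr and Scarb1. They were chosen as the non-control probes whose gene name on the array was one of these 10 symbols, which gave 18 probes for 10 genes out of 41174 probes for 27396 gene names. Liver RNA of male C57Bl/6J mice, aged 14 weeks and fasted for 4 h, was measured on 8 single-colour arrays with 2 per group. In LF_LF, dam (from embryonic day 10.5) and offspring received a defined diet with 12% of its energy as fat and enough vitamin A. VAD_VAD mice had a defined diet of the same fat content that lacked vitamin A, in both periods. LF_HF mice had dams on the vitamin A sufficient low fat diet and were weaned onto a diet with 60% of its energy as fat. BD_HF mice were weaned onto that same high fat diet, but their dams stayed on the standard breeder diet, so BD_HF and LF_HF share the diet after weaning and differ in that of the dam. The labels do not say whether each array held RNA of its own animal, so the p-values below measure the spread between these samples, which may be technical.

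Long-chain fatty acids reach hepatocytes from plasma, bound to albumin, and from lipoproteins whose triglyceride is split by lipases at the vessel wall. CD36 and the SLC27 proteins bring fatty acids across the cell membrane, the FABPs carry them in the cytosol, and receptors such as VLDLR and SR-B1 (the product of Scarb1) take up lipoproteins or their cholesteryl esters. In adult liver, hepatic lipase (Lipc) and Fabp1 are typical products of hepatocytes, whereas Lpl and Fabp4 are better known from adipose tissue and macrophages. Several of these genes are textbook targets of PPAR and other nuclear receptors that pair with RXR.

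Start regions were available for 7 of the 10 genes, in 9 windows, from RefSeq on GRCm38.p6; Lpl, Fabp4 and Scarb1 had no entry. The 250 bases upstream of each start were searched on both strands for AGGTCA, the core motif of nuclear receptors, and for a looser tandem repeat, DR1, made of 2 copies of AGGNCA with 1 base between them, in which N is any base and which can contain AGGTCA. The start regions of Cd36, which differed most clearly among these 7 genes, and of Fabp1, which held the repeat, are shown 5′ to 3′ on the strand of the gene, with matches to either motif in capitals. The Cd36 window is chr5:17835897-17836146 (minus strand) and the Fabp1 window is chr6:71199629-71199878 (plus strand).
Cd36: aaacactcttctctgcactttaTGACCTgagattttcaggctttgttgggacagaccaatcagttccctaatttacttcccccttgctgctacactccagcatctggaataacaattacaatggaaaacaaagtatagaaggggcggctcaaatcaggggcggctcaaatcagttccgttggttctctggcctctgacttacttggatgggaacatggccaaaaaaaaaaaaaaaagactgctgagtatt
Fabp1: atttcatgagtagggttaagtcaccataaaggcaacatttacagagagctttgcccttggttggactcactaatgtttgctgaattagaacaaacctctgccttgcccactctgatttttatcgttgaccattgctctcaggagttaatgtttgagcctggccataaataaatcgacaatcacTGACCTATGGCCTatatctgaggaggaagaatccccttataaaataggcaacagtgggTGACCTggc
The Cd36 window held 1 AGGTCA, read on the opposite strand at positions −228 to −223 from the start. The Fabp1 window held 1 repeat, also on the opposite strand, at positions −67 to −55, and 2 AGGTCA, of which 1 lies inside the repeat. The repeat was found in 0.338% of 32851 start regions of this length and in none of the other 8 windows of the 10 genes. AGGTCA was found in 14% of all start regions; it was also present upstream of Slc27a2 and of 1 of the 2 starts of Lipc, and was not found in these windows of Fabp2, Slc27a4 or Vldlr. A match describes letters only and is no evidence of binding.

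Levels are given as log2 of the processed signal minus the array's own 75th percentile, so that 0 is the signal at that percentile; levels of different probes are not comparable with each other. The brightest probe stands for a gene with several. All 18 probes passed the filter on dim probes (detection in both replicates of some group), and 17 of them were well above background on every array with a value; the exception was the dimmer probe of Vldlr in LF_HF. LF_HF replicate 1 stood apart from the other 7 arrays. Its 75th percentile was 496.1 against 195.5 to 295.7, and its median signal 160.9 against 16.45 to 29.26. Before scaling, the brightest probes of Lipc, Fabp1, Fabp2, Slc27a2 and Scarb1 had a higher signal on this array than on LF_HF replicate 2. Once each array's 75th percentile was taken off, they read lower on it. Those of Cd36, Slc27a4 and Vldlr were higher on it both before and after scaling, and the cause of this split was not tested. On this array 82.2% of spots were well above background against 56.5% to 64.2%, and 2707 spots were flagged as outliers against 46 to 316. The replicate correlation over genes was 0.918 in LF_HF and 0.977 to 0.992 in the other groups. Because of those flags, the brightest probes of Lpl and Fabp4 had no value on LF_HF replicate 1, and that of Fabp1 none on BD_HF replicate 2. Replicate 1 of every group lay on slide 1 and replicate 2 on slide 2, so each comparison could also be read within a slide.

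Only Cd36 and Lpl passed the test in any pairwise comparison. Group means were compared with limma over all 17354 genes with Benjamini-Hochberg adjustment. In LF_HF minus LF_LF, 2 of the 10 genes were lower and 0 higher, against 1.87% of all genes lower and 0.617% higher (2.49% in either direction). In BD_HF minus LF_LF, a comparison outside the 3 named by the study, 1 of the 10 was lower and 0 higher, against 1.05% and 0.455% (1.51%). The diet of the dam and the diet after weaning both differ there and cannot be told apart. In BD_HF minus LF_HF and in VAD_VAD minus LF_LF none of the 10 passed by limma, against 0.00576% and 0.57% of all genes (in VAD_VAD minus LF_LF 0.0922% higher and 0.478% lower). At an unadjusted p under 0.05, 4, 3, 1 and 3 of the 10 were counted in these comparisons in the order given, against 16.6%, 12.8%, 5.45% and 10.3% of all genes. The median difference of the 10 genes was −0.01, 0.30, 0.39 and 0.29, and that of all genes −0.02, 0.11, 0.17 and 0.09. With 2 arrays a group, groups that did not overlap were common: 42.2%, 60.1%, 27% and 58% of the genes measured on all arrays concerned were so separated. The shares of genes separated upward were 20.9%, 34.2%, 17.5% and 32.4%, and downward 21.3%, 25.9%, 9.56% and 25.5%. All comparisons but BD_HF minus LF_HF share the LF_LF arrays, and those with LF_HF or BD_HF share arrays too, so they are not independent of each other.

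**Figure D1:**
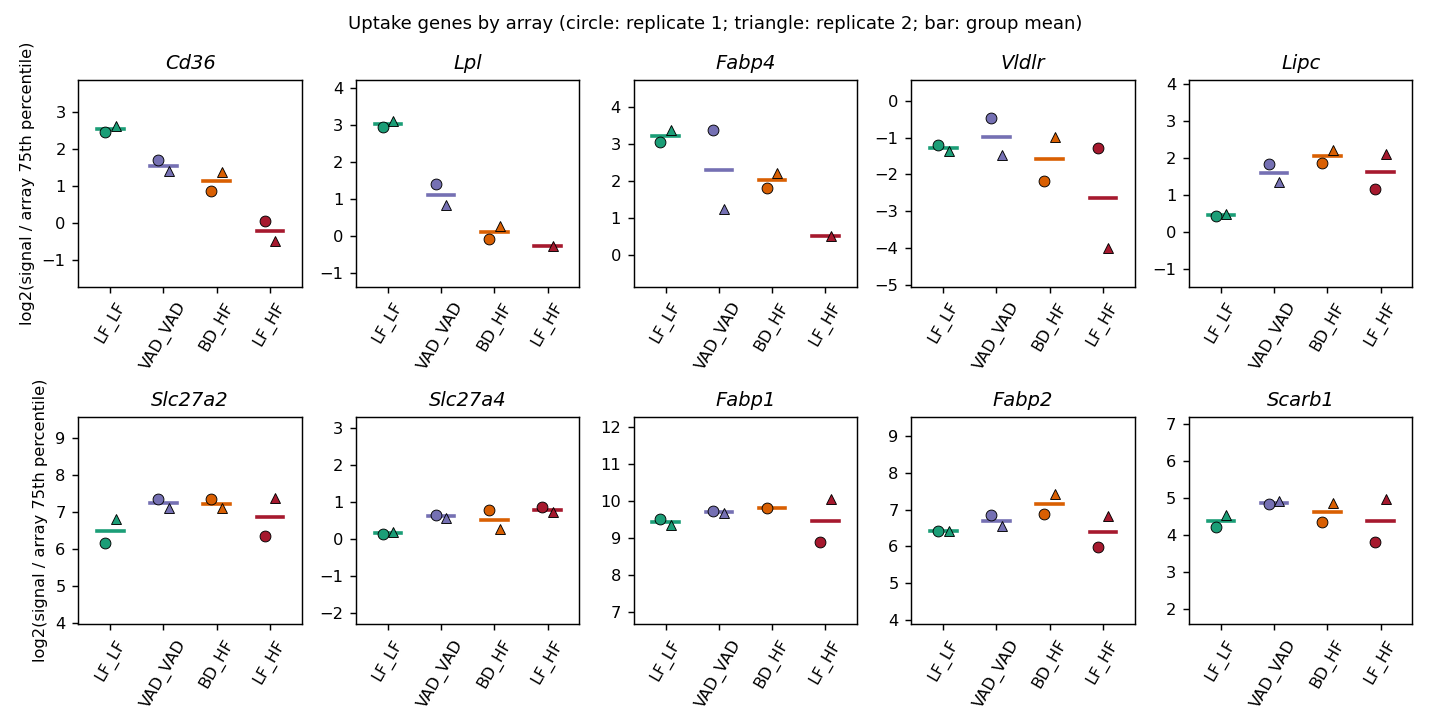
Log2 level relative to the array's 75th percentile (y axis) of the brightest probe of each gene, for the 4 groups (x axis); circles are replicate 1, triangles replicate 2 and bars the group means, and every panel spans the same number of log2 units. Cd36 and Lpl descend from LF_LF through VAD_VAD and BD_HF to LF_HF, Lipc is lowest in LF_LF, and Vldlr differs widely between the LF_HF arrays (−1.29 and −3.99).

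Lpl codes for lipoprotein lipase, which hydrolyses the triglyceride of chylomicrons and VLDL. Its brightest probe (chr8:71430267-71430326, mm9) read 2.96 and 3.13 on the LF_LF arrays and 1.41 and 0.83 on the VAD_VAD arrays. It read −0.07 and 0.27 in BD_HF and −0.26 on LF_HF replicate 2, the only LF_HF array with a value. LF_LF lay above every other array, VAD_VAD in between, and the LF_HF value was the lowest. Lpl was 9.90-fold lower in LF_HF than in LF_LF, a log2 difference of −3.31 (SE 0.442, n = 1 and 2 arrays, limma adjusted p = 0.0243). With the slide as a block the difference was −3.30 and the adjusted p 0.0502, which ended the call. In BD_HF it was 7.70-fold lower than in LF_LF, at −2.95 (SE 0.361, n = 2 and 2, limma adjusted p = 0.0236), and −3.03 on slide 1 and −2.86 on slide 2. The VAD_VAD difference of −1.92 (SE 0.361) did not pass (limma adjusted p = 0.105). BD_HF and LF_HF differed by 0.36, with a 95% confidence interval from −0.70 to 1.43. In whole liver, fewer cells of a type and less RNA per cell cannot be told apart.

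The dimmer Lpl probe (chr8:71425050-71425109, mm9) had a value on all 8 arrays. It read 1.76 and 1.62 in LF_LF, −0.12 and −0.50 in VAD_VAD, −1.07 and −1.46 in BD_HF, and −0.82 and −1.59 in LF_HF. Here, too, LF_LF lay above all other arrays, while the BD_HF and LF_HF arrays overlapped. Its differences from LF_LF were −2.90 in LF_HF (SE 0.372, limma adjusted p over probes = 0.0203), −2.95 in BD_HF (0.0242) and −2.00 in VAD_VAD (0.100). The order of the LF_HF and BD_HF means was thus opposite with the 2 probes, and their difference on this probe was −0.06. On the brightest probe, the call in LF_HF was kept without LF_HF replicate 1, which had no value there, and lost in the other 6 of the 7 fits that left out an array and could be made (adjusted p up to 0.253). The call in BD_HF was kept without either LF_HF array and lost without any other array (adjusted p up to 0.301), while the difference stayed between −3.12 and −2.77.

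Lipc codes for hepatic lipase, which acts on remnants and HDL at the sinusoidal surface. Its single probe, whose mapped ends on mm9 (chr9:70660699-70664375) lie 3677 bases apart for a 60-base sequence, read 0.42 and 0.49 in LF_LF. It read 1.83 and 1.34 in VAD_VAD, 1.87 and 2.22 in BD_HF, and 1.16 and 2.11 in LF_HF. All 6 arrays of these groups lay above the LF_LF arrays, and they overlapped among themselves except that BD_HF lay above VAD_VAD. The differences from LF_LF were 1.18 in LF_HF (SE 0.407, limma adjusted p = 0.212), 1.59 in BD_HF (0.144) and 1.13 in VAD_VAD (0.384). None passed, with 95% confidence intervals of 0.23 to 2.13, 0.63 to 2.54 and 0.18 to 2.08. Without LF_HF replicate 1, the differences in LF_HF and BD_HF were 1.65 and 1.59 and both passed, at limma adjusted p = 0.0251 and 0.0177. Without LF_HF replicate 2, the difference in LF_HF was 0.70 and did not pass (adjusted p = 0.120).

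Cd36 codes for a scavenger receptor that facilitates uptake of long-chain fatty acids. Its brightest probe, with mapped ends 2433 bases apart on mm9 (chr5:17289110-17291542), read 2.45 and 2.62 in LF_LF. It read 1.70 and 1.39 in VAD_VAD, 0.86 and 1.37 in BD_HF, and 0.05 and −0.49 in LF_HF. The 4 groups did not overlap, but VAD_VAD and BD_HF nearly touched at 1.39 and 1.37. Cd36 was 6.75-fold lower in LF_HF than in LF_LF, a log2 difference of −2.76 (SE 0.354, n = 2 and 2, limma adjusted p = 0.0147). The difference was −2.40 on slide 1 and −3.11 on slide 2, and the adjusted p with the slide as a block was 0.0261. Without LF_HF replicate 1 the difference was −3.02 (limma adjusted p = 0.00515). The call was lost without BD_HF replicate 2 (0.0552), VAD_VAD replicate 2 (0.0564), LF_LF replicate 1 (0.193) or LF_LF replicate 2 (0.226), with differences of −2.84 to −2.67.

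The remaining comparisons of Cd36 did not pass. BD_HF lay below LF_LF by −1.42 (SE 0.354, limma adjusted p = 0.132) and VAD_VAD by −0.99 (SE 0.354, adjusted p = 0.379). BD_HF, with breeder-fed dams, lay above LF_HF by 1.33 (SE 0.354, adjusted p = 0.785), with 0.81 on slide 1 and 1.86 on slide 2 and a 95% confidence interval from 0.51 to 2.16. Its unadjusted limma p was 0.0063, and 1 of 17354 genes passed in that comparison. The dimmer probe of Cd36 (chr5:17288600-17288659, mm9) gave −2.89 in LF_HF minus LF_LF (SE 0.472, adjusted p over probes = 0.0408), −1.42 in BD_HF minus LF_LF, −0.98 in VAD_VAD minus LF_LF and 1.46 in BD_HF minus LF_HF. The 2 probes of Cd36 followed each other over the 8 arrays, with a Pearson correlation of 0.988 as a description.

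**Figure D2:**
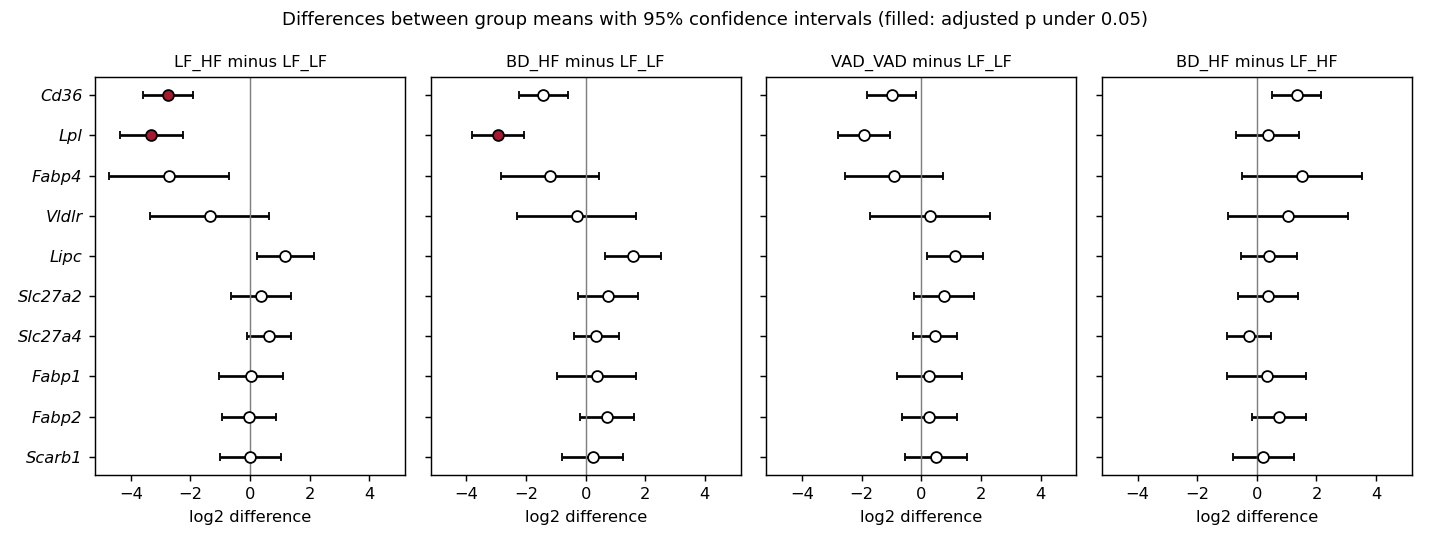
Log2 differences between group means (x axis) with 95% confidence intervals for the 10 genes (y axis) in 4 comparisons; filled points had a limma adjusted p under 0.05. The filled points are Cd36 (−2.76) and Lpl (−3.31) in LF_HF minus LF_LF and Lpl (−2.95) in BD_HF minus LF_LF; the intervals of Fabp4 and Vldlr are the widest.

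A test over all 4 groups at once, limma's F test, called 0.899% of genes and none of the 10. Lpl and Cd36 fell just short, with adjusted p = 0.05004 and 0.0527 by limma, and 3 of the 10 (Cd36, Lpl and Lipc) had an unadjusted p under 0.05, against 13.2% of all genes.

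Slc27a2, the very long-chain acyl-CoA synthetase and transporter FATP2 of liver and kidney, read 6.17 and 6.80 in LF_LF. It read 7.36 and 7.12 in VAD_VAD, 7.34 and 7.10 in BD_HF, and 6.34 and 7.36 in LF_HF. VAD_VAD and BD_HF lay above LF_LF without overlap, whereas the LF_HF arrays spanned nearly the whole range. The differences from LF_LF were 0.76, 0.74 and 0.37 in that order, and none passed. Its dimmer probe gave 1.09, 1.26 and 0.75, larger but likewise short of the threshold (limma adjusted p over probes = 0.472, 0.300 and 0.434). Slc27a4, the related transporter FATP4, read 0.14 and 0.20 in LF_LF, 0.65 and 0.58 in VAD_VAD, 0.79 and 0.26 in BD_HF, and 0.87 and 0.73 in LF_HF. For Slc27a4, LF_LF was the lowest group without overlap with any other, by 0.63 at most (LF_HF, SE 0.317, limma adjusted p = 0.371). The dimmer probe of Slc27a4 had a signal of 12.8 to 26.5 on 7 arrays and of 175.9 on LF_HF replicate 1, and it followed the brighter one only loosely (r = 0.54 over 8 arrays).

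Fabp1, the liver fatty acid binding protein, showed small differences between groups. It read 9.52 and 9.36 in LF_LF, 9.75 and 9.68 in VAD_VAD, 9.81 on the measured BD_HF array, and 8.89 and 10.06 in LF_HF. Its signal before scaling was 183508 to 235513 on the 7 arrays, and no spot was flagged as saturated. The LF_HF arrays enclosed all others. The differences from LF_LF were 0.04 in LF_HF, 0.37 in BD_HF and 0.27 in VAD_VAD, with 95% confidence intervals of −1.05 to 1.12, −0.96 to 1.69 and −0.81 to 1.35. None passed, and the intervals allow differences of either sign. They are not limits of detection.

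Fabp2, better known as the intestinal form, read 6.43 and 6.42 in LF_LF, 6.84 and 6.56 in VAD_VAD, 6.88 and 7.42 in BD_HF, and 5.98 and 6.82 in LF_HF. BD_HF was the highest group, above every other array. Its difference was 0.72 from LF_LF (SE 0.390, limma adjusted p = 0.524) and 0.75 from LF_HF (adjusted p = 0.785), and the dimmer probe gave 0.97 and 0.85. In LF_HF minus LF_LF the probes gave −0.03 and 0.11. Of 8 enterocyte markers, 3 were tested and none passed by limma: Alpi, well above background on 8 arrays (1.85 in LF_HF minus LF_LF, adjusted p = 0.0597), Sis on 6 arrays (1.78) and Vil1 on 5 (−0.20). Lct, Cdx1, Cdx2 and Muc2 were well above background on 1 array each and Rbp2 on 2.

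Fabp4, the adipocyte and macrophage form, had the largest difference among the 10 genes that did not pass. Its brightest probe (chr3:10204533-10205262, mm9, mapped ends 730 bases apart) read 3.04 and 3.38 in LF_LF, 3.37 and 1.25 in VAD_VAD, 1.82 and 2.22 in BD_HF, and 0.50 on the measured LF_HF array. The VAD_VAD arrays were far apart, with replicate 1 at the level of LF_LF and replicate 2 below BD_HF. Fabp4 was 6.56-fold lower in LF_HF than in LF_LF, at −2.71 (SE 0.834, n = 1 and 2, limma adjusted p = 0.182). The 2 other probes had values on all 8 arrays and gave −2.16 and −2.51 (adjusted p over probes = 0.183 and 0.160). With normexp background correction the difference was −2.11 and passed (limma adjusted p = 0.0350). In VAD_VAD minus LF_LF the difference was 0.33 on slide 1 and −2.13 on slide 2.

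**Figure D3:**
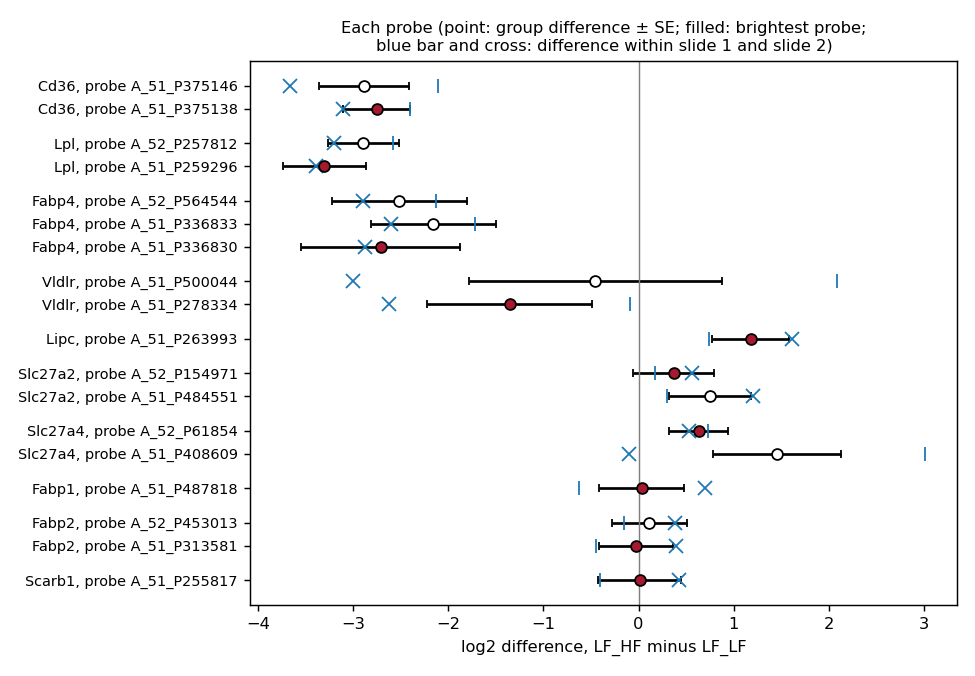
Log2 difference LF_HF minus LF_LF (x axis) for each of the 18 probes (y axis), as a point with its SE; filled points are the brightest probe of a gene, and blue bars and crosses give the difference within slide 1 and slide 2. All probes of Cd36, Lpl and Fabp4 lie between −3.31 and −2.16, whereas for Fabp1, Fabp2 and Scarb1 the brightest probe is within 0.04 of 0 and the slides have opposite signs. Slide 1 holds LF_HF replicate 1, the array that stood apart.

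Vldlr, a receptor for triglyceride-rich lipoproteins with low expression in normal adult liver, read −1.20 and −1.36 in LF_LF and −0.48 and −1.47 in VAD_VAD. It read −2.19 and −0.98 in BD_HF and −1.29 and −3.99 in LF_HF. Replicate 2 of LF_HF was the lowest array, and all groups overlapped with LF_LF. The LF_HF difference was −1.36 (SE 0.859, limma adjusted p = 0.481), made of −0.09 on slide 1 and −2.63 on slide 2. Without LF_HF replicate 1, which left LF_HF replicate 2 alone in its group, it was −2.71. Without LF_HF replicate 2 it was close to 0 (−0.005). On LF_HF replicate 2 the signal before scaling was 12.3, against 52.0 to 203.6 on the other arrays. The dimmer Vldlr probe, not well above background on LF_HF replicate 2, gave −0.455 in LF_HF minus LF_LF (SE 1.33). Its difference was 2.09 on slide 1 and negative on slide 2. Scarb1, the HDL receptor for selective cholesteryl ester uptake, read 4.21 and 4.53 in LF_LF, 4.82 and 4.90 in VAD_VAD, 4.34 and 4.87 in BD_HF, and 3.81 and 4.95 in LF_HF. Its differences from LF_LF were 0.01, 0.23 and 0.49 in LF_HF, BD_HF and VAD_VAD, with 95% confidence intervals of −1.02 to 1.04, −0.80 to 1.27 and −0.54 to 1.52.

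Among 18 other fatty acid transporters and binding proteins, 15 were tested. In LF_HF minus LF_LF 1 was higher and 1 lower, in VAD_VAD minus LF_LF 1 was higher, and in the comparisons with BD_HF none passed by limma. Fabp5, the epidermal and macrophage form, was not well above background on either array of LF_LF or BD_HF, and read −2.60 and −3.98 in LF_HF and −2.28 and −2.24 in VAD_VAD. It was at least 4.79-fold higher in LF_HF (limma adjusted p = 0.0204) and at least 9.74-fold higher in VAD_VAD (0.0179) than in LF_LF, taking for LF_LF the lowest signal well above background on each array. Fabp5 entered the test only through the groups where it was detected, so these p-values set detected against undetected signals. Neither passed under quantile scaling or without the probe filter, and the VAD_VAD difference did not pass under normexp either. Mfsd2a, a transporter of lysophosphatidylcholine with long-chain fatty acids, read 5.65 and 5.51 in LF_LF, 7.07 and 6.06 in VAD_VAD, 4.42 and 4.81 in BD_HF, and 3.11 and 3.59 in LF_HF. It was lower in LF_HF than in LF_LF by −2.23 (SE 0.420, limma adjusted p = 0.0432), a call kept in 6 of 11 alternatives with all arrays. The call ended without the probe filter, with the mean of a gene's probes, with the slide as a block and with outlier spots kept. Most fits that left out 1 array also ended it. The smallest p in BD_HF minus LF_LF belonged to Fabp3 (−1.94, adjusted p = 0.083) and in BD_HF minus LF_HF to Fabp5 (at least 3.28-fold lower in BD_HF, adjusted p = 0.785).

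Lipoprotein receptors and lipase cofactors gave no call with the settings used throughout. Of 14 tested receptors and their partners, none passed in any comparison by limma, and the smallest p belonged to Stab1 in LF_HF minus LF_LF (−0.95, adjusted p = 0.162) and to Stab2 in BD_HF minus LF_LF (0.84, adjusted p = 0.373), in BD_HF minus LF_HF (1.33, adjusted p = 0.785) and in VAD_VAD minus LF_LF (0.94, adjusted p = 0.399); both are scavenger receptors of sinusoidal endothelium. Of 18 lipase regulators and remodelling proteins none passed by limma either. The smallest p there belonged to Apoc2, the obligate cofactor of lipoprotein lipase, in LF_HF minus LF_LF (−1.43, adjusted p = 0.122), to Sel1l, needed for lipase maturation, in BD_HF minus LF_LF (1.45, adjusted p = 0.173), to Gpihbp1, the capillary anchor of lipoprotein lipase, in BD_HF minus LF_HF (1.30, adjusted p = 0.785), and to Pltp, the phospholipid transfer protein, in VAD_VAD minus LF_LF (2.22, adjusted p = 0.184). Some passed under other settings: in LF_HF minus LF_LF, Stab1, Abcg1, Apoc2 and Lipa were lower under normexp, Apoc2 under quantile scaling and Abcg1 under trend and robust variances. Apoc2 was also lower in BD_HF minus LF_LF under quantile scaling. Under normexp and under trend and robust variances, Sel1l was higher in BD_HF minus LF_LF and Pltp in VAD_VAD minus LF_LF.

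Of 12 tested transcription factors and coactivators known to act on uptake genes, 1 was higher in LF_HF minus LF_LF and the same 1 in BD_HF minus LF_LF. It was Nr1i3, the constitutive androstane receptor CAR, which read −0.25 and 0.05 in LF_LF, 1.23 and 1.96 in VAD_VAD, 3.03 and 3.18 in BD_HF, and 2.26 and 2.79 in LF_HF. Its order of group means was the reverse of that of the brightest Lpl probe except that BD_HF exceeded LF_HF. Against the dimmer Lpl probe, on which BD_HF and LF_HF differed by −0.06, the order was reversed in full. Nr1i3 was higher than in LF_LF by 2.63 in LF_HF (SE 0.377, limma adjusted p = 0.0209) and by 3.20 in BD_HF (adjusted p = 0.0147). Each of these calls ended without the probe filter and in several fits that left out 1 array. In VAD_VAD the difference of 1.70 did not pass (limma adjusted p = 0.143), though it did under normexp and under trend and robust variances. In BD_HF minus LF_HF the smallest p was that of Ppara (0.98, adjusted p = 0.785). Pparg, the adipogenic receptor that acts on Cd36, Lpl and Fabp4, differed from LF_LF by −0.52 in LF_HF, −1.15 in BD_HF and −1.30 in VAD_VAD, none past the threshold.

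Some macrophage and stellate cell markers were lower than in LF_LF where Cd36 and Lpl were. Most hepatocyte markers had positive differences from LF_LF, and adipocyte markers were mixed. Endothelial differences were mostly negative in LF_HF but not in BD_HF or VAD_VAD. Of 10 hepatocyte markers, 9 were on the array and tested, with 7, 8 and 9 positive differences from LF_LF in LF_HF, BD_HF and VAD_VAD. Their median differences were 0.08, 0.44 and 0.71, against −0.02, 0.11 and 0.09 over all genes. Cyp2e1 was higher in BD_HF by 2.59 (limma adjusted p = 0.0414), and its differences of 2.15 in LF_HF (0.0564) and 1.83 in VAD_VAD (0.181) did not pass. Alb differed from LF_LF by at most 0.46. The summed level of 8 was 1934 to 1970 in LF_LF, 2495 to 3187 in VAD_VAD, 2802 to 2896 in BD_HF and 1475 to 3262 in LF_HF. The LF_HF arrays gave both the lowest and the highest sum. Of 10 macrophage markers, 4 were lower in LF_HF than in LF_LF: Trem2 (−3.71), Itgax (−3.33), Lyz2 (−2.43) and Cd68 (−1.96). In BD_HF 3 were lower (Trem2, Itgax and Gpnmb, which was well above background on 4 of the 8 arrays) and in VAD_VAD 1 (Trem2, −2.77). The summed level of the 10 macrophage markers, in multiples of the array's 75th percentile, was 169 to 186 in LF_LF, 80.0 to 122 in VAD_VAD, 87.3 to 98.0 in BD_HF and 61.8 to 70.2 in LF_HF. LF_LF was thus the highest group and LF_HF the lowest, as for Cd36 and for the brightest probe of Lpl, measured on 1 LF_HF array. On the dimmer Lpl probe LF_LF was also highest, but the means of BD_HF (−1.26) and LF_HF (−1.21) nearly coincided. Of the 10 differences from LF_LF, 9 were negative in LF_HF, 7 in BD_HF and 9 in VAD_VAD, with medians of −1.79, −1.49 and −0.94. Clec4f and Cd5l, markers of resident Kupffer cells, differed by 0.42 and −0.58 in LF_HF minus LF_LF and did not pass. Clec4f had the only positive difference of the 10 in that comparison. All 10 macrophage markers were well above background on some array.

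Of 8 adipocyte markers, 6 were tested and 1 passed in LF_HF minus LF_LF, and the defining genes Adipoq and Retn were well above background on 1 array each. Plin4 was lower in LF_HF than in LF_LF by −2.87 (limma adjusted p = 0.0352). Cidec, a lipid droplet protein that fatty liver also makes, read 5.56 and 5.88 in LF_LF and 6.42 and 1.52 in VAD_VAD, so that its VAD_VAD arrays split in the same direction as those of Fabp4. The summed level of the 6 was 50.6 to 65.2 in LF_LF, 5.63 to 90.4 in VAD_VAD, 3.83 to 19.2 in BD_HF and 3.76 to 4.52 in LF_HF. Cidec made up most of this sum on the LF_LF arrays. The other 4 markers (Plin1, Lipe, Cfd and Lep) had positive differences both in LF_HF and in BD_HF, none of which passed, and the median of the 6 was 0.98 and 0.52. Of 8 stellate cell markers, 3 were lower in LF_HF and in BD_HF (Col1a1, Col3a1 and Pdgfrb) and 4 in VAD_VAD (these and Lrat), with sums over 7 genes measured on every array of 47.8 to 48.4 in LF_LF and 12.9 to 20.8 elsewhere. Of the 8, 2 had positive differences from LF_LF in LF_HF, 3 in BD_HF and 2 in VAD_VAD, with medians of −1.20, −0.53 and −1.52. None of 9 endothelial markers passed by limma; 8, 4 and 2 differences from LF_LF were negative in LF_HF, BD_HF and VAD_VAD, with sums of 40.0 to 41.8 in LF_LF, 62.2 to 65.3 in VAD_VAD, 54.1 to 67.7 in BD_HF and 17.4 to 30.1 in LF_HF. The part of these markers' cell types in the differences of Cd36, Lpl and Fabp4 was not tested.

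**Figure D4:**
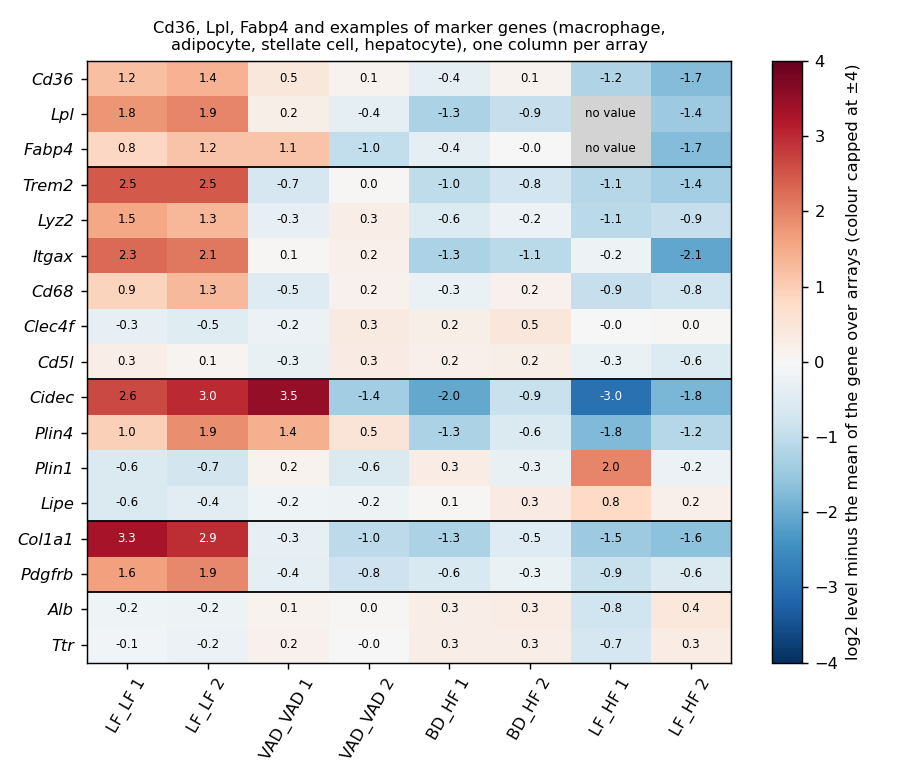
Log2 level minus the gene's mean over arrays (colour and printed value) for Cd36, Lpl, Fabp4 and examples of marker genes of macrophages (Trem2 to Cd5l), adipocytes (Cidec to Lipe), stellate cells (Col1a1, Pdgfrb) and hepatocytes (Alb, Ttr) in rows, and the 8 arrays in columns; grey cells had no value. Trem2, Itgax, Lyz2, Cd68, Col1a1 and Pdgfrb are highest on the LF_LF arrays like Cd36 and Lpl, and Cidec and Fabp4 are both high on VAD_VAD replicate 1 and low on replicate 2. Not every marker of a list is shown. The stellate cell markers shown were called lower in each comparison with LF_LF. Of the 8 stellate cell markers, 2, 3 and 2 had positive differences from LF_LF in LF_HF, BD_HF and VAD_VAD.

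Among 13774 other genes well above background on every array, those whose levels followed Cd36 most closely over the 8 arrays were Zfp579 (r = 0.992), Ncoa7 (0.988) and Sparc (0.985). For Lpl, over the 7 arrays on which it was measured, they were Phlda3 (0.995), Fxyd6 (0.994) and Cd34 (0.994), out of 13775. For Lipc, over 8 arrays, they were Cyp2d22 (0.999), Pecr (0.991) and Car9 (0.991). All arrays share the 4 groups, and these names describe a likeness of pattern only.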

How the data were processed

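Liver RNA of 8 samples was hybridised to single-colour Agilent arrays of design 014868, read with Feature Extraction 10.7.3.1 and annotated on mm9, per the file headers. The deposited files give the processed signal as a linear intensity that the authors did not scale between arrays, as far as the file headers record. The submitters' processing notes name Agilent Feature Extraction and limma, with no version or role. The deposited value table of the series held the same intensity to within 0.497%, with column medians of 15.7 to 27.9 and, for LF_HF replicate 1, 178; it was neither log-scaled nor centred.

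Here, control spots (1486 positive and 153 negative of 45018) and outlier-flagged spots were left out, spots of a probe averaged, and log2 of the signal taken minus each array's 75th percentile. A probe was kept (26224 of 41174) when some group had it well above background in both replicates, and the brightest represented each of 17354 genes. A probe with several spots counted as above background when most of its spots were. limma 3.58.1 in R 4.3.3 fitted all 8 arrays in 4 groups, with 4 residual and 3.42 prior degrees of freedom for complete genes and calls were made at an adjusted p under 0.05. The fit was also run on simulated data, but no outcome of that run is given here and no call rests on it. Plots were drawn in Python 3.11.15 with pandas 2.3.3 and matplotlib 3.10.9. Symbols of other genes were updated through RefSeq for 28223 probes, of which 1471 changed. The number of arrays limits the precision.

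The 10 genes and all lists were chosen with earlier results of these data known. Named were the 10 genes, the genes of 4 related lists that passed or had the smallest p, the 3 genes most like Cd36, Lpl and Lipc, and marker genes; Pparg and the markers given beside a result were chosen after their values were seen. Alternatives were other background corrections, scalings, filters, probes and variance models, the slide as a block, and leaving out each array; 2 of them, keeping outlier spots and using the second probe, were added after seeing the data. Same-numbered replicates shared a slide, but the labels do not state that numbers pair samples, and the correlation of their deviations from the group means was 0.0994 to 0.303 over 16248 genes.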

Additional observations from a re-analysis of the deposited data

How the results depend on the processing

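Cd36 in LF_HF minus LF_LF passed in 10 of 11 alternatives that kept all arrays, Lpl in 8, and Lpl in BD_HF minus LF_LF in 10; the number of genes lower in LF_HF was 3 under normexp (Cd36, Lpl and Fabp4), 0 without the probe filter and 1 with the slide as a block. The replicate block is the same fit as the slide block, since number and slide coincide: 1 gene (Cd36) was then lower in LF_HF, and it changed no other call of the 10 genes. Leaving out 1 array gave 0 to 3 genes lower and 0 to 1 higher in LF_HF minus LF_LF, 0 to 2 lower and 0 to 1 higher in BD_HF minus LF_LF, 0 to 2 higher in BD_HF minus LF_HF and 0 to 1 lower in VAD_VAD minus LF_LF. A lone array in a group is assumed to vary like the other groups. Lipc was the 1 gene higher in LF_HF minus LF_LF under normexp and under quantile scaling, and in BD_HF minus LF_LF under normexp and under trend and robust variances. In BD_HF minus LF_LF 2 genes (Cd36 and Lpl) were lower under normexp and under trend and robust variances, and 0 without the probe filter. In VAD_VAD minus LF_LF 1 gene (Lpl) was lower under normexp, with probes above background on all arrays, and under trend and robust variances. The F test over 4 groups called 2 genes (Cd36 and Lpl) under normexp, quantile scaling, probes above background on all arrays, and trend and robust variances, 1 (Lpl) with the mean of a gene's probes and with the second probe, and 0 to 3 when 1 array was left out. The cause of these changes was not tested, except that the unfiltered fit covers 27396 genes.

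Over all genes, the number called in LF_HF minus LF_LF, 432 as reported, was 2672 under normexp, 892 under quantile scaling, 807 under trend and robust variances, 32 unfiltered, 288 with the mean of probes and 0 to 11710 with 1 array left out; in BD_HF minus LF_LF 262 became 699, 338, 610, 0, 164 and 0 to 1580, and in VAD_VAD minus LF_LF 99 became 361, 102, 299, 0, 67 and 0 to 909. Quantile scaling moved the median of all genes in LF_HF minus LF_LF from −0.02 to −0.22. Without LF_HF replicate 2, 11710 genes passed in LF_HF minus LF_LF and 11225 in BD_HF minus LF_HF, where 1 passed as reported.

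Differences that changed sign were all short of the threshold as reported. In LF_HF minus LF_LF, Fabp1 became −0.080 under normexp, −0.17 under quantile scaling and −0.076 with outlier spots kept, Fabp2 0.044 with the mean of probes and 0.11 with the second probe, and Scarb1 −0.11 under normexp and −0.10 with outlier spots kept. In BD_HF minus LF_LF, Fabp1 became −0.043 under quantile scaling and Vldlr 0.17 with the second probe. In BD_HF minus LF_HF, Lpl became −0.056 with probes above background on all arrays and with the second probe and −0.33 with outlier spots kept, and Scarb1 −0.046 under quantile scaling. In VAD_VAD minus LF_LF, quantile scaling gave −0.29 for Fabp1 and −0.16 for Fabp2. Leaving out 1 array gave, in LF_HF minus LF_LF, −0.55 to 0.62 for Fabp1, −0.44 to 0.39 for Fabp2, −0.15 to 0.88 for Slc27a2 and −0.56 to 0.58 for Scarb1. In BD_HF minus LF_LF it gave −0.91 to 0.30 for Vldlr and −0.030 to 0.50 for Scarb1. In BD_HF minus LF_HF it gave −0.067 to 0.88 for Lipc, −0.26 to 0.92 for Fabp1, −0.15 to 0.88 for Slc27a2, −0.30 to 2.40 for Vldlr and −0.35 to 0.80 for Scarb1, and in VAD_VAD minus LF_LF −1.96 to 0.16 for Fabp4 and −0.19 to 0.80 for Vldlr.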
